A study of Mus musculus with 7 samples.

Results

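The retinoid set described here comprised 9 genes for making, reading and removing retinoic acid, namely Dhrs3, Rdh10, Rdh11, Rdh14, Aldh1a1, Rara, Rarg, Crabp1 and Cyp26b1. Each gene was taken as the assembled oocyte transcript that carried its name on the same strand, and as the transcript with the highest mean level where several did. Of these 9 genes, 8 had such a transcript among the 15476 genes named in this way, and no transcript carried the name Cyp26b1, which encodes an enzyme that breaks down retinoic acid and was not analysed here. The set was assembled around Dhrs3, which was chosen by its measured difference between the genotypes compared below, so the change of Dhrs3 is given as a description with no test.

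The libraries were made from single GV oocytes, named for the large nucleus or germinal vesicle of an oocyte held in meiotic prophase, of 21-day-old females, labelled C57BL6 and kept on a C57BL/6OlaHsd background by the methods of the study. By the labels all females carried Setd1b floxed on both alleles. In Setd1b cKO females a Gdf9-Cre transgene, which is active in oocytes from early folliculogenesis onwards, deleted the floxed segment of this H3K4 methyltransferase gene, and the Setd1b WT females were labelled as negative for Gdf9-Cre, although the methods also count Cre carriers heterozygous for the deletion as WT. There were 4 cKO and 3 WT libraries, each from 1 oocyte, and the labels did not say which oocytes shared a mother, so p-values measure the spread between these oocytes alone.

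Vitamin A reaches cells as retinol. Retinol dehydrogenases oxidise it to retinaldehyde in a reversible step, and DHRS3 runs that step in reverse, returning retinaldehyde to retinol. Retinaldehyde dehydrogenases then make retinoic acid, which binds nuclear receptors that switch target genes, while CRABP proteins carry it in the cytoplasm and CYP26 enzymes destroy it. In the ovary, retinoic acid is best known for its part in the entry of fetal germ cells into meiosis.

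Libraries held between 8582493 and 12972366 mapped reads, and levels are mapped reads scaled to a common library size (RPM). Reads outside the assembled transcripts made up 13.2% to 16.4% of a cKO library and 9.57% to 9.90% of a WT library. The transcript at Setd1b lay between 2.68 and 16.7 RPM in cKO and between 8.61 and 17.7 RPM in WT oocytes, and since it includes the part outside the floxed segment it is no check of the labels. Oocyte markers summed to between 7898 and 12771 RPM in cKO and between 11295 and 16780 RPM in WT (exact permutation test, two-sided p = 0.143), with 9 of 10 tested. Of these 9, the kinase gene Mos, whose transcript reached beyond the gene, passed the test used below (log2 difference -1.34, limma adjusted p = 0.00581). One library of each genotype stood apart in the zona pellucida gene Zp2, at 751 RPM in cKO replicate 4 and 1033 RPM in WT replicate 3 against 2307 to 3201 RPM in the other libraries.

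Dhrs3 transcript was nearly absent from Setd1b cKO oocytes. The gene lies on chromosome 4, and its oocyte transcript ran from 144892476 to 144927645 on the plus strand (GRCm38). The WT oocytes held 39.9, 42.1 and 16.1 RPM, from 493, 546 and 172 reads. The cKO oocytes held 1.09, 0.741, 0.784 and 1.40 RPM, from 11, 9, 9 and 12 reads. The lowest WT oocyte thus stood far above the highest cKO oocyte, and the levels did not overlap. The means were 32.7 ± 14.4 RPM in WT (SD, n = 3) and 1.0 ± 0.306 RPM in cKO (SD, n = 4), a 32.6-fold lower mean in cKO. On the log2(RPM + 1) scale the difference was -3.97 (SE 0.36), and 1 of 18179 transcripts tested had a lower value. The WT oocyte with the lowest Dhrs3 was replicate 3 and the cKO oocyte with the highest was replicate 4, the libraries that stood apart in Zp2. The log2 difference was -4.40 without the former and -4.06 without the latter.

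**Figure D1:**
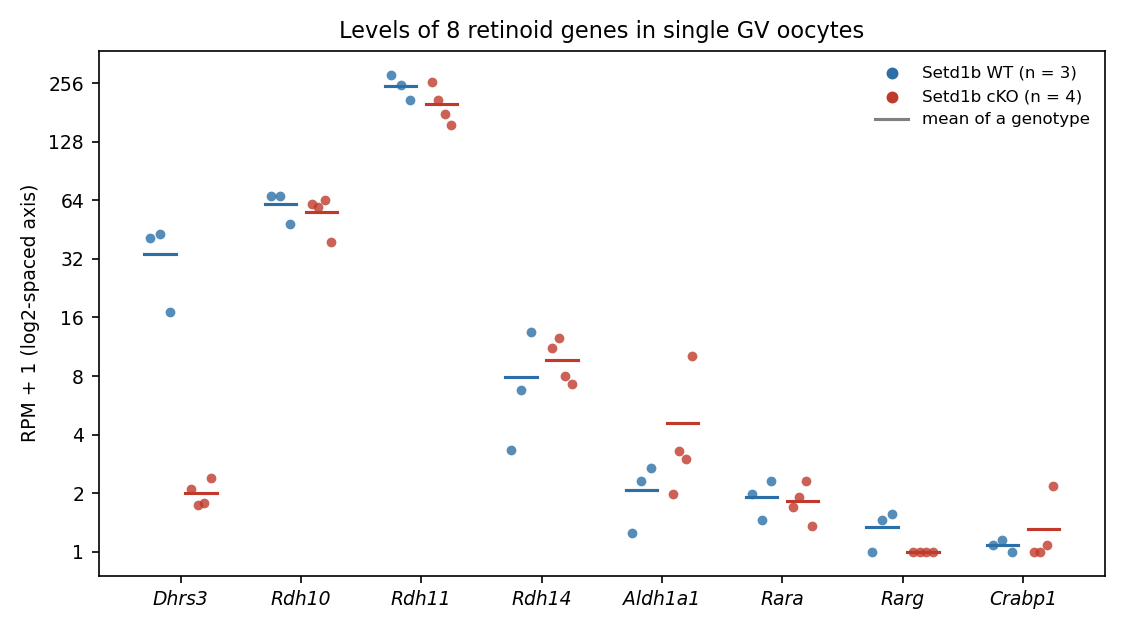
Levels of the 8 genes with a transcript in each oocyte, as RPM + 1 on a log2-spaced axis, with 3 WT (blue) and 4 cKO (red) libraries as points and genotype means as lines. Dhrs3 lies between 16.1 and 42.1 RPM in WT and between 0.741 and 1.40 RPM in cKO, while the points of each other gene overlap between genotypes.

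The start of Dhrs3 is shown beside those of Rdh11 and Rdh14, short-chain dehydrogenases of the same set whose transcripts did not pass the test. Each window holds 250 bases before and 50 bases after the RefSeq start nearest to the oocyte transcript (GRCm38.p6), with CG dinucleotides in capitals. RefSeq windows were found for all of the 9 genes but Rdh10, and the window of Cyp26b1, which had no oocyte transcript, was not used.
Dhrs3: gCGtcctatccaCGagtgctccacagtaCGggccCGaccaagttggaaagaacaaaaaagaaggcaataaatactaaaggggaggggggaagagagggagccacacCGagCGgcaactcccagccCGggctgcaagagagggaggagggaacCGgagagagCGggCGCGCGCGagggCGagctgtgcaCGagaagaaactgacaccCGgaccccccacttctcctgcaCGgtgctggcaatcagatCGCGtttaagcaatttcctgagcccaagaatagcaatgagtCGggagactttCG
Rdh11: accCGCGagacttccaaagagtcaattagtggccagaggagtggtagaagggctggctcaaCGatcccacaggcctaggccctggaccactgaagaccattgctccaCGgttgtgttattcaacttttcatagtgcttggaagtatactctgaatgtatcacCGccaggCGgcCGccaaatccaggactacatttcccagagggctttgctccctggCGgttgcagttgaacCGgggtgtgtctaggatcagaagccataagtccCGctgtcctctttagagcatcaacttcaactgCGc
Rdh14: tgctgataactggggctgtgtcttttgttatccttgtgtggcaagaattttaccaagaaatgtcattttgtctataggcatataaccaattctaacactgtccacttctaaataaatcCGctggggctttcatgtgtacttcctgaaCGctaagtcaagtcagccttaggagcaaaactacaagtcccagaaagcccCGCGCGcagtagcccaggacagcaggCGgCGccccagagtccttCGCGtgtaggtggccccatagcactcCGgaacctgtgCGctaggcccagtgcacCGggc
The Dhrs3 window, chr4:144892577-144892876 on the plus strand, held 21 CG dinucleotides against a median of 7 over 32851 RefSeq windows, and 75.2% of windows held fewer. The oocyte transcript of Dhrs3 began 351 bases before the RefSeq start, so the window lies within it. The Rdh11 window, chr12:79191806-79192105 on the minus strand, held 11 CG dinucleotides. It also lies within its oocyte transcript, which began 438 bases before the RefSeq start. The Rdh14 window, chr12:10390530-10390829 on the plus strand, held 12 CG dinucleotides. Windows of the set that are not shown held 20 (Rara), 17 (Crabp1), 10 (Rarg) and 1 (Aldh1a1). The core motif of retinoic acid receptors (spelled AGGTCA, also AGTTCA, also GGGTCA and also GGTTCA, with both strands searched) was found 0 times in the Dhrs3 and Rdh14 windows and 1 time in the Rdh11 window, and 43.7% of all windows held it. The DR5 direct repeat of that motif was in none of these 3 windows and in 0.0974% of all windows.

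Rdh10, Rdh11 and Rdh14 encode enzymes that oxidise retinol or reduce retinaldehyde, and none of them passed the test between genotypes. Past the threshold means an adjusted p under 0.05 with a change of over 2-fold in limma (Benjamini-Hochberg over 18179 transcripts). Of all transcripts tested, 5.71% passed, 3.76% higher and 1.95% lower in cKO, and 771 passed with voom, 443 higher and 328 lower. An unadjusted limma p was under 0.05 for 14.2% that were higher and 7.52% that were lower. Of the 4 tested genes of the set other than Dhrs3, 0 passed with limma, 0 passed with voom and 0 had an unadjusted p under 0.05. These 4 genes are too few to tell 0 from those shares. Rdh10, which makes most of the retinaldehyde of the embryo, stood at 66.7, 66.1 and 47.6 RPM in WT and at 60.1, 58.1, 63.0 and 38.0 RPM in cKO. These levels overlapped, with a log2 difference of -0.14 (SE 0.24, limma adjusted p = 0.80). The first 1187 bases of the Rdh10 transcript overlap that of the ribosomal protein gene Rpl7 on the other strand, at a mean of 334 RPM. Reads of that stretch cannot be assigned to a strand.

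Rdh11, an enzyme with a broad retinoid substrate range, had the highest level per exon length of the set. It was measured at 282, 249 and 209 RPM in WT and at 257, 209, 177 and 155 RPM in cKO. The ranges overlapped, and the log2 difference was -0.32 (SE 0.23, limma adjusted p = 0.480). Rdh14 was measured at 2.35, 5.78 and 12.5 RPM in WT and at 10.1, 11.5, 6.97 and 6.29 RPM in cKO. The WT oocytes spanned the whole range of the cKO oocytes, and the log2 difference was 0.49 (SE 0.43, limma adjusted p = 0.579). It was -0.02 without WT replicate 1 and 0.99 without WT replicate 3.

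To compare genes with each other, RPM was divided by the kilobases of annotated exon (GENCODE M21) inside the transcript, for genes whose transcript lay at least 80% within the gene. In WT oocytes Rdh11 stood at 71.4 ± 10.6 RPM per kb, Rdh10 at 14.5 ± 2.61, Dhrs3 at 13.8 ± 6.10 and Rdh14 at 4.65 ± 3.50 RPM per kb (SD, n = 3). Rdh10 and Dhrs3 thus did not differ beyond their spread in WT. In cKO oocytes Dhrs3 was at 0.424 ± 0.129 RPM per kb (SD, n = 4), below Rdh10 at 13.2 ± 2.74 and Rdh14 at 5.89 ± 1.69 RPM per kb. The ratio of Dhrs3 to Rdh10 per kb within an oocyte was 1.05, 1.12 and 0.595 in WT. It was 0.0319, 0.0225, 0.0219 and 0.0648 in cKO. Among 6 retinol dehydrogenases and retinal reductases measured in this way, Dhrs3 made up 7.66% to 15.9% of the summed level in WT and 0.367% to 0.998% in cKO. Ranked over 12548 genes, Dhrs3 stood at position 2011 in WT and 8656 in cKO.

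**Figure D2:**
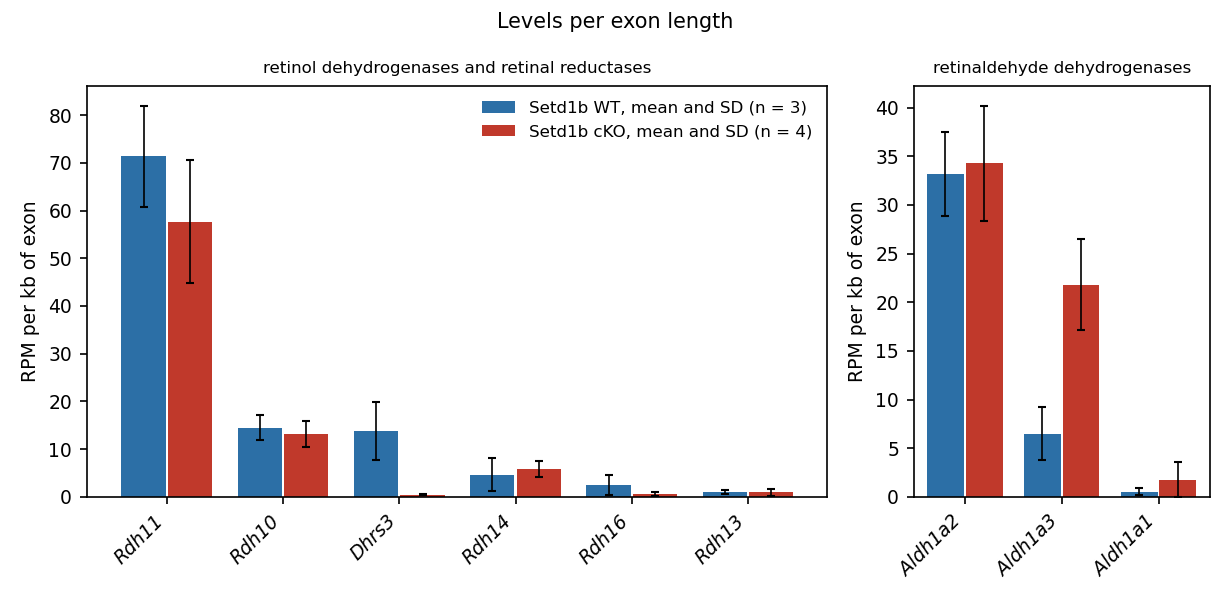
Mean level per exon length (RPM per kb, bars, with SD) of the retinol dehydrogenases and retinal reductases (left) and of the retinaldehyde dehydrogenases (right) in 3 WT (blue) and 4 cKO (red) oocytes. Dhrs3 stands at 13.8 in WT and 0.424 RPM per kb in cKO, and Aldh1a3 stands at 6.51 in WT and 21.8 RPM per kb in cKO.

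Aldh1a1 encodes a retinaldehyde dehydrogenase that makes retinoic acid, and its transcript was low in both genotypes. That transcript covered 41.6% of the annotated exon bases of the gene. WT oocytes held 0.243, 1.31 and 1.68 RPM, and cKO oocytes held 0.990, 2.31, 2.00 and 9.09 RPM. Only cKO replicate 4 stood above the range of 0.243 to 2.31 RPM that the other oocytes shared. The log2 difference was 0.93 (SE 0.52, limma adjusted p = 0.336), and 0.45 without that oocyte. Per exon length, the related Aldh1a2, the main such enzyme of the embryo, was the leading retinaldehyde dehydrogenase of these oocytes, at 33.2 ± 4.34 RPM per kb in WT and 34.3 ± 5.91 in cKO, against 0.526 ± 0.364 and 1.75 ± 1.80 RPM per kb for Aldh1a1, whose cKO mean rests on replicate 4.

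Rara and Rarg encode nuclear receptors of retinoic acid, and Crabp1 a cytoplasmic binding protein. All were below the filter of 1 RPM in 3 libraries and were compared in the fit without that filter. Rara was at 0.972, 0.463 and 1.31 RPM in WT and at 0.693, 0.906, 1.31 and 0.350 RPM in cKO, with overlapping levels (limma adjusted p = 1.0). Rarg had 0, 6 and 6 reads in WT and 0 reads in each of the 4 cKO oocytes, where a count of 0 allows up to 0.247 to 0.350 RPM by library. The WT values of 0.463 and 0.561 RPM lay above those limits, and WT replicate 1 shared the 0 of the cKO oocytes (limma adjusted p = 0.322). Crabp1 had 1, 2 and 0 reads in WT and 0, 0, 1 and 10 reads in cKO, the last being replicate 4 at 1.17 RPM (limma adjusted p = 0.856). Limits of this kind cover counting error only.

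Over the 7 oocytes, Pearson's r with Dhrs3 on the log2(RPM + 1) scale was 0.60 for Rdh11, 0.31 for Rdh10, -0.53 for Rdh14 and -0.53 for Aldh1a1. For the genes below the filter it was 0.63 for Rarg, -0.01 for Rara and -0.18 for Crabp1. These are descriptions over oocytes that share their genotype difference. The 5 genes of at least 8 RPM most like Dhrs3 were Sorcs3 (r = 0.995), Mat1a (r = 0.993), Gdap1 (r = 0.993), Miip (r = 0.990) and Fhod3 (r = 0.990), and their separation by genotype follows from how they were found. Mat1a, an enzyme that makes S-adenosylmethionine, was at 18.0 ± 5.22 RPM in WT and 3.57 ± 0.665 RPM in cKO. Gdap1, a mitochondrial outer membrane protein, was at 96.0 ± 14.9 RPM in WT and 38.4 ± 2.98 RPM in cKO. The sorting receptor gene Sorcs3 was at 15.1 ± 2.28 and 7.31 ± 0.342 RPM, Miip at 17.0 ± 1.85 and 9.01 ± 0.746 RPM, and the formin gene Fhod3 at 110 ± 5.35 and 73.4 ± 2.28 RPM in the same order.

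The genes beside Dhrs3 on chromosome 4 were examined in the same fit. Vps13d, 45 kb after Dhrs3, stood at 15.8 ± 0.821 RPM in WT and 18.4 ± 2.60 RPM in cKO (log2 difference 0.20, limma adjusted p = 0.674). On the other side, Pramef12 at 484 kb gave a log2 difference of -0.58 (limma adjusted p = 0.230) and Pramef20 at 509 kb gave -0.43 (limma adjusted p = 0.431). Tnfrsf8, 339 kb after Dhrs3, was near the filter, with -0.78 (limma adjusted p = 0.220). None of these 4 neighbours passed the test.

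Another 69 genes of retinoid biology, in 6 lists by role, were read in the same way. Of these, 42 had a transcript, 27 were tested, 2 were higher and 1 was lower in cKO, 1 of the higher ones being the intronic transcript described below, and the median log2 difference of the 27 was 0.07 against 0.12 over all transcripts tested. Of the 27 genes, 8 did not overlap between genotypes, where 20.3% of all transcripts tested did not. Among the 8 is the intronic transcript, which passed the filter through the cKO oocytes alone, so its lack of overlap is no result. Crabp2, the binding protein that delivers retinoic acid to its receptors, was the one that fell. It was measured at 120, 97.3 and 162 RPM in WT and at 46.7, 38.3, 81.4 and 53.5 RPM in cKO. All WT oocytes stood above all cKO oocytes, with a 2.30-fold lower mean and a log2 difference of -1.21 (SE 0.28, limma adjusted p = 0.0333). The call was lost without any 1 WT oocyte or without cKO replicate 1 or 2, with adjusted p between 0.0708 and 0.104, and in the fit without a filter (adjusted p = 0.146).

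Aldh1a3, a retinaldehyde dehydrogenase, rose in cKO oocytes. WT oocytes held 5.83, 11.9 and 14.9 RPM and cKO oocytes 35.5, 29.7, 33.2 and 47.7 RPM. The lowest cKO oocyte stood above the highest WT oocyte, with a 3.36-fold higher mean and a log2 difference of 1.72 (SE 0.31, limma adjusted p = 0.0117). The call was lost in the fit without a filter (adjusted p = 0.0840). Its transcript covered 36.2% of the annotated exon bases of the gene. Of the 3 retinaldehyde dehydrogenases per exon length, Aldh1a3 made up 8.47% to 23.0% of the summed level in WT and 32% to 47.2% in cKO.

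The other transcript called higher carried the name of the receptor gene Rarb, but it is a stretch of 499 bases on chromosome 14, from 16620146 to 16620644 on the minus strand, that holds 0 annotated exon bases of Rarb and so does not measure its mRNA. It had 1, 0 and 0 reads in WT and 10, 17, 19 and 14 reads in cKO, and it passed the filter through the cKO oocytes alone. Over the genotypes this was 60 against 1 read, a ratio of 51.1 per mapped read (exact 95% interval 8.82 to 2050, counting error only), which is given as a description, since the filter kept this transcript for its cKO level. Without this transcript among the calls, 1 gene of the 6 lists was higher and 1 lower.

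**Figure D3:**
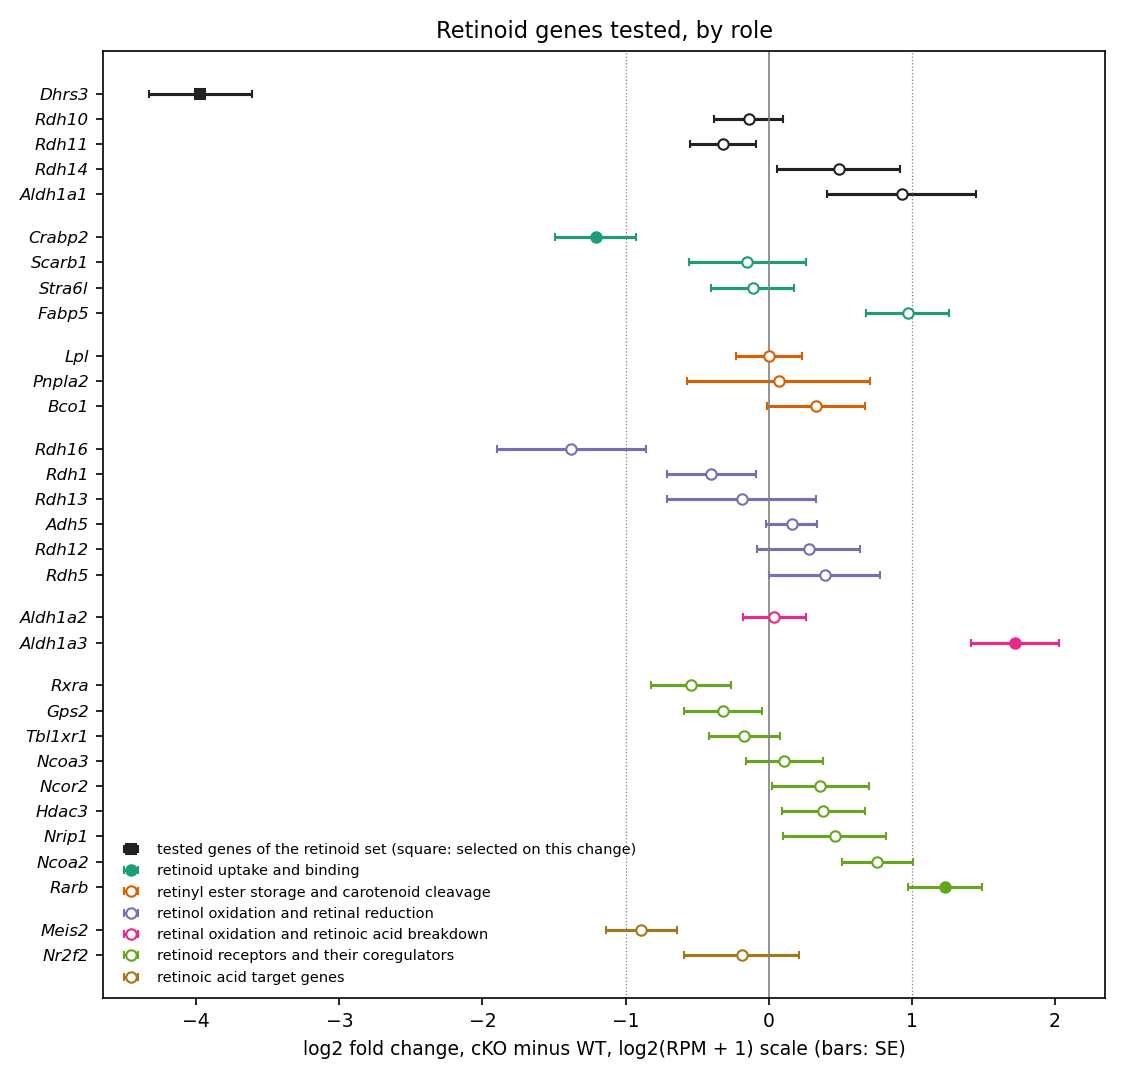
Log2 difference (cKO minus WT, log2(RPM + 1) scale, bars SE) of the 5 tested genes of the retinoid set and of the tested genes of the 6 role lists, except 1 target gene. Filled markers passed the threshold, the square is Dhrs3, which was selected on this change, and dotted lines mark a 2-fold change. Crabp2 lies at -1.21, Aldh1a3 at 1.72 and the intronic transcript named Rarb at 1.23, and the other genes of the lists are open.

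By role, the uptake and binding list had 4 genes tested, of which 1, Crabp2, passed. Its abundant Fabp5, a fatty acid binding protein that also carries retinoic acid, was at 167, 126 and 227 RPM in WT and at 340, 224, 337 and 469 RPM in cKO. The highest WT oocyte lay within the cKO range, and the log2 difference of 0.97 did not pass (limma adjusted p = 0.0758), but it did without cKO replicate 2 (1.16, adjusted p = 0.0449). Stra6l, a receptor for the retinol-binding protein of blood (-0.11, adjusted p = 0.878), and Scarb1, a scavenger receptor that takes up lipoprotein lipids and carotenoids (-0.15, adjusted p = 0.886), gave log2 differences near 0 in limma.

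The retinyl ester storage list had 3 genes tested, and 0 passed with limma or voom, with 0 at an unadjusted p under 0.05. The lipases Lpl (0.00, adjusted p = 1.0) and Pnpla2 (0.07, adjusted p = 0.967) and the carotenoid oxygenase Bco1 (0.33, adjusted p = 0.646) were its members by level. Of 6 tested in the retinol oxidation list, 0 passed with limma or voom. An unadjusted p under 0.05 held for 1, Rdh16, which was lower, against 14.2% higher and 7.52% lower of all transcripts tested. Rdh16, a retinol dehydrogenase gene, was at 16.1, 4.24 and 4.02 RPM in WT and at 2.87, 3.54, 2.18 and 0.350 RPM in cKO. These levels did not overlap, and the log2 difference of -1.38 (SE 0.52) did not pass (limma adjusted p = 0.151). It was the lowest of the 27 genes, a rank that rests on WT replicate 1 at 16.1 RPM. Rdh5 was at 69.5, 70.8 and 152 RPM in WT and at 95.8, 70.9, 137 and 217 RPM in cKO, with a log2 difference of 0.39 (limma adjusted p = 0.632). Rdh12 gave 0.28 (adjusted p = 0.729) and Adh5, the glutathione-dependent alcohol dehydrogenase, 0.16 (adjusted p = 0.680) in limma. The transcripts named Rdh5, Rdh12 and Adh5 reached outside those genes and are uncertain as their measures.

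Of the receptors and coregulators, 9 were tested and 1 passed, the intronic Rarb transcript. An unadjusted p under 0.05 held for 2, that transcript and the coactivator gene Ncoa2, both higher, against 14.2% higher and 7.52% lower of all transcripts tested. Ncoa2 was at 18.9, 27.7 and 17.9 RPM in WT and at 34.1, 45.2, 29.6 and 38.6 RPM in cKO. These levels did not overlap, and the log2 difference of 0.76 did not pass (limma adjusted p = 0.0964). The receptor gene Rxra was lower, at 4.62, 2.78 and 3.37 RPM in WT and at 2.47, 2.31, 2.26 and 1.51 RPM in cKO. Its levels did not overlap either, and the log2 difference of -0.54 did not pass (limma adjusted p = 0.304). The coactivator Ncoa3 (0.11, adjusted p = 0.860) and the corepressor subunits Tbl1xr1 (-0.17, adjusted p = 0.762) and Gps2 (-0.32, adjusted p = 0.547) were its most abundant genes in limma. Of the retinoic acid target genes, 3 were tested and 0 passed with limma or voom. An unadjusted p under 0.05 held for 2, of which 1 passed the filter through the cKO oocytes alone. Meis2, a homeobox gene, was at 704, 639 and 523 RPM in WT and at 433, 394, 275 and 263 RPM in cKO. These levels did not overlap, and the log2 difference of -0.89 missed the threshold (limma adjusted p = 0.0606), with 32.4% of the exon bases in its transcript. With each library centred on its median transcript it passed (-1.04, limma adjusted p = 0.0397). Nr2f2, a nuclear receptor gene, gave -0.19 (limma adjusted p = 0.842).

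DHRS3 belongs to the short-chain dehydrogenases and reductases. Of 36 other genes of that family, 25 had a transcript, 19 were tested, 1 was higher and 0 were lower in cKO with limma, and the unadjusted p was under 0.05 for 5 that were higher and 0 that were lower, against 14.2% and 7.52% of all transcripts tested. Of the 5, Decr1 passed the filter through the cKO oocytes alone. With voom, 1 gene passed. Hsd17b10, a mitochondrial member, was at 9.07, 10.9 and 6.74 RPM in WT and at 36.8, 34.8, 50.5 and 46.5 RPM in cKO. The levels did not overlap, with a 4.73-fold higher mean and a log2 difference of 2.13 (SE 0.25, limma adjusted p = 0.00279). The median over the 19 genes was 0.33, against 0.12 over all transcripts. The abundant Dhrs1 (0.05, adjusted p = 0.937), Hsd17b13 (0.33, adjusted p = 0.479) and Hsdl2 (-0.11, adjusted p = 0.877) did not pass in limma.

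Somatic cells that surround an oocyte also express retinoid genes, so their markers were summed. The 13 granulosa cell markers with a transcript summed to 97.9, 92.6, 106 and 99.3 RPM in cKO and 66.7, 74.1 and 58.7 RPM in WT (exact permutation test, two-sided p = 0.0286, the smallest that 4 against 3 allow). Most of that sum was Cyp19a1, at 17.1 to 27.3 RPM in WT and 19.5 to 30.6 RPM in cKO, and Nr5a2, at 27.4 to 28.3 and 32.5 to 50.8 RPM. Amh and Foxl2 had at most 0.174 RPM in any oocyte, but other markers of the list were detected. Fshr reached 5.15 RPM in cKO and 2.92 RPM in WT, and Gja1 reached 5.14 and 2.31 RPM in the same order. Hsd17b1 reached 2.06 RPM in cKO and 0.486 RPM in WT. Of the 7 markers tested, 6 had a positive log2 difference, and Kitl had -0.08. The mean of Has2, below the filter, was 0.258 RPM in cKO and 0.538 RPM in WT. Inha, an inhibin subunit, was at 0.810, 4.32 and 0 RPM in WT and at 7.03, 11.4, 13.2 and 0.583 RPM in cKO. Wnt4 was at 4.13, 3.01 and 7.77 RPM in WT and at 10.6, 4.86, 16.4 and 22.7 RPM in cKO. These genes overlapped between genotypes (limma adjusted p = 0.225 and 0.159), and 0 of the 7 markers tested passed with limma or voom, with 2 at an unadjusted p under 0.05. The 6 theca and stroma markers with a transcript summed to 0.655 to 2.19 RPM in WT and 0.583 to 2.18 RPM in cKO (exact p = 0.80). The part of attached cells in the levels of Aldh1a1, Crabp1, Crabp2 and Aldh1a3 was not tested.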

How the data were processed

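Single oocytes were lysed by the authors, cDNA was amplified with the SMARTer Ultra Low RNA Kit, and 75-base single reads were mapped to GRCm38 with Hisat, guided by known splice sites, keeping MAPQ of at least 20. The deposited values are log2 RPM of 33437 assembled oocyte transcripts with merged isoforms, quantified in SeqMonk. Whether strand was used in counting is not stated, and the kit does not mark it. The labels give 4 cKO and 3 WT libraries, because 1 WT library preparation failed. The 9 genes and the lists were chosen with earlier results of these data known.

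Log2 values were turned back to RPM, in which 100% of values were whole reads within 0.001 of a read, and depth followed from the value of 1 read. No libraries were duplicates (chi-square per degree of freedom of at least 14.0). The test was limma 3.58.1 with trend in R 4.3.3 on log2(RPM + 1) of the 18179 transcripts that reached 1 RPM in 3 or more libraries, with Benjamini-Hochberg adjustment, and past the threshold means adjusted p under 0.05 and over 2-fold. It was tested on simulated data. Named were all 9 genes, Setd1b, list genes past the threshold (at most 6) with the 3 of highest mean that were not, the 5 genes most correlated with Dhrs3 and 2 neighbours on each side. Rdh16, Ncoa2, Rxra, Hsd11b1, Pecr, Decr1, Rpl7, Amh, Foxl2, Inha, Fshr, Gja1, Hsd17b1, Kitl and Has2 fall outside that rule and were named after their values were seen. Marker sums were compared by an exact permutation test. Setd1b was found by coordinates, since its transcript carries another name. Alternatives were pseudocounts of 0.1 and 5, the deposited log2 values, no filter and a mean of at least 4 RPM, centring, quantile normalisation, scaling to reads within transcripts, voom, no trend, a replicate block and each library left out. One gene of the target list, counted among those tested, is not reported here.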

Additional observations from a re-analysis of the deposited data

Results flagged for a closer look

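Of 39 genes checked for a cKO oocyte far from the other 3, 4 had one, and by chance about 1 in 20 would. Aldh1a1 was at 9.09 RPM in cKO replicate 4 against 0.990 to 2.31 RPM in the others, a gap of 0.837 of the range. Crabp1 was at 1.17 RPM in the same oocyte against 0 to 0.0871 RPM, a gap of 0.925 of the range. Pramef12 was at 102 RPM there against 54.7 to 62.3 RPM, a gap of 0.842 of the range. Tnfrsf8 was at 1.81 RPM in cKO replicate 2 against 0.174 to 0.396 RPM, a gap of 0.865 of the range. Thus 3 of the 4 were in replicate 4, the cKO oocyte with the lowest Zp2 and the fewest mapped reads.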

How the results depend on the processing

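The log2 difference of Dhrs3 stayed negative under all 18 alternatives, from -4.95 to -2.56, the latter with a pseudocount of 5 RPM, and 0 of the other genes of the set passed under any. The 6 retinoid lists held 3 calls, 1 without a filter and 1 to 3 with a library left out, Aldh1a3 (adjusted p = 0.0840) and Crabp2 (0.146) being lost without a filter and the Rarb transcript with a pseudocount of 5 RPM or without any 1 WT library (0.0595 to 0.0966), and it was below the filter with a mean of at least 4 RPM or without cKO replicate 2, 3 or 4. After centring there were 4 calls, with Meis2 gained. Among short-chain dehydrogenases the 1 call became 1 to 2 with a library left out. It became 2 when list genes without a named transcript were matched by position, an alternative chosen after seeing the data. This matched 10 genes and added Hsd11b1 (1.56, limma adjusted p = 0.0401, or 0.162 without a filter). Hsd11b1 passed the filter through the cKO oocytes alone, so its value is a description. Pecr, matched in the same way, was at 560 ± 55.0 RPM in WT and 436 ± 36.0 RPM in cKO. These levels did not overlap, and its log2 difference of -0.36 did not pass (limma adjusted p = 0.328). The retinoid lists kept 3 calls. All transcripts gave 1038 calls, 553 with a pseudocount of 5 RPM, 303 without a filter and 280 (without WT replicate 2) to 1287 (without cKO replicate 4) with a library left out. Of the calls 65.8% were higher in cKO, 46.3% after centring and 49.2% after quantile normalisation, which moved the median of all transcripts from 0.12 to -0.03 in the centred fit. The granulosa marker difference was 28.5 to 36.2 RPM with a library left out and kept its sign, and the exact p of 0.0667 or 0.10 is the smallest that the remaining numbers of libraries allow. The theca and stroma difference of 0.151 RPM ran from -0.163 to 0.603 RPM, turning to -0.0979 without cKO replicate 1 and -0.163 without WT replicate 3. The cause of the other changes was not tested. With a replicate block, which leaves cKO replicate 4 without a partner, there were 1403 calls, 3 of them short-chain dehydrogenases and 4 in the retinoid lists. Deviations from the genotype mean correlated at 0.19, 0.29 and -0.13 for same-numbered oocytes and at -0.55 to 0.43 for different-numbered ones. These values cannot show whether oocytes are paired, and the labels do not say which shared a mother. Levels under about 1 RPM rest on few reads and limit what can be seen for Rara, Rarg and Crabp1.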
